A study of Mus musculus with 33 samples.

Results

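The comparison described here follows 2 *Nanog* deletion clones through the interval from day 4 to day 6 of embryoid body (EB) differentiation. Its members are 10 of the 33 RNA-seq libraries of the series, chosen by clone and day alone: 4 from day 6 (replicates 2 and 3 of ΔK9.1 and of ΔK9.2) and 6 from day 4 (replicates 1 to 3 of each). ΔK9.1 and ΔK9.2 (dK9.1 and dK9.2 in the labels) are derived from E14Tg2a, a mouse embryonic stem (ES) cell line. Both are homozygous for a CRISPR deletion of the region between the *Nanog* promoter and its upstream enhancer that carries H3K9me3 in ES cells, and each is a single clone. All lines were kept in serum with the cytokine LIF, and differentiation began when aggregates that had grown on gelatin were moved to dishes without adhesive coating and LIF was withdrawn. The day 4 samples are aggregates from these dishes, whereas the day 6 samples were collected after aggregates had been put back on gelatin at low density, so the later day and the change to adherent growth cannot be told apart. Of the other libraries, those of wild-type E14Tg2a from days 4 and 6 (5 libraries) served to test whether the change differed from that of the parental line, and those of days 0 and 8 to describe the course around it. An alternative fit held all 33 libraries.

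When ES cells lose LIF they leave naive pluripotency, the state held by factors such as ESRRB, KLF2 and TFCP2L1, and pass through a formative or primed state like that of the epiblast just after implantation. Posterior epiblast cells exposed to WNT, Nodal, BMP and FGF ligands then form the primitive streak, switching on the T-box factors *T* and *Eomes*, turning down epithelial adhesion and migrating as mesoderm or definitive endoderm. NANOG is a homeodomain factor of the naive state that is reactivated in the posterior epiblast, and it is antagonistic to the primitive endoderm programme led by GATA6.

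Shown here because WNT signalling induces the streak, and its genes were those that rose most, are the promoters of 3 streak or mesoderm factors that hold a match to the core motif of the TCF/LEF factors, the DNA-binding partners of β-catenin in WNT signalling. The 250 bases before the RefSeq start (mm10, GRCm38.p6) are given 5′ to 3′ on the strand of the gene, with matches to CTTTGAT or CTTTGAA, in either orientation, in capitals. They are those of *T* (chr17:8434173-8434422, plus strand, match 235 bases before the start), *Msgn1* (chr12:11208949-11209198, minus strand, matches 203 and 143 bases before it) and *Sp5* (chr2:70474673-70474922, plus strand, 104 bases). GENCODE M21 has the same start for *T* and *Sp5* and places that of *Msgn1* at 11208972, within the printed bases but after both matches.
T: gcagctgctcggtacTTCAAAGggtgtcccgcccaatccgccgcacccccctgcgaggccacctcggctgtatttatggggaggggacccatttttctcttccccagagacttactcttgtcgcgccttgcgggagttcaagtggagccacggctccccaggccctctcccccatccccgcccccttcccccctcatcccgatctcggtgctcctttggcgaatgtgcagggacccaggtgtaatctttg
Msgn1: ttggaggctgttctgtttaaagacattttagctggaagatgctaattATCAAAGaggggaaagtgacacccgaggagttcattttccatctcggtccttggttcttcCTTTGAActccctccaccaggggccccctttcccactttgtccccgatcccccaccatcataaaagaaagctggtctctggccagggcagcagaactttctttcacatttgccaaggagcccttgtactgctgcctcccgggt
Sp5: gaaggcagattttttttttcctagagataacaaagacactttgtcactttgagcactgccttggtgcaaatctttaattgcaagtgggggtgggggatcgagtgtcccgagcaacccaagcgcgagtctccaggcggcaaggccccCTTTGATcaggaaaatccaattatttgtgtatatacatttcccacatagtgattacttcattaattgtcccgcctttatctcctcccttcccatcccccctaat
A match is a description of these letters and not a bound site. Of 32851 mouse promoters of this length, 7.48% hold either motif, as do 5.13% of the 13474 promoters of genes tested, compared with 4 of the 21 promoters (19.05%) found for 20 of the 25 streak genes described below, 6.57% of 639 promoters of genes higher on day 6 and 5% of 540 promoters of genes lower on day 6. The fourth gene, *Mesp1*, is not printed, since GENCODE M21 starts it farther upstream, at 79793788, and the matches then lie inside the gene. The motif and the genes shown were chosen after the promoters had been scanned, so these shares carry no test.

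Expression is given as TPM, the deposited transcript abundance, which corrects for gene length and for library size. The depth of single libraries cannot be recovered from TPM, and precision was taken from the spread between libraries. Before the comparison, the libraries were inspected. The 6 libraries of day 4 and the 4 of day 6 lay at opposite ends of the first principal component (58.2% of the variance), except that ΔK9.1 replicate 3 of day 6 lay between them, at 18.6, where the other day 6 libraries lay at 50.6 to 57.9 and the day 4 libraries at -48.2 to -17.1. On day 4, ΔK9.2 replicate 1 stood out by its markers of primitive and visceral endoderm, whose summed level ran from 11.1 to 216 TPM on day 4 and from 22.9 to 51.4 TPM on day 6. Counts below were therefore also taken without each of these libraries. The pluripotent cell markers summed to 2192 to 2487 TPM on day 4 and 1747 to 2238 TPM on day 6. Mesoderm markers summed to 6.09 to 12.7 TPM on day 4 and to 68.0 to 519 TPM on day 6, the lowest in ΔK9.1 replicate 3. The share of TPM from mitochondrial genes was 2.01% to 2.99% on day 4 and 3.02% to 4.07% on day 6. In such bulk samples, fewer cells of a type and less RNA per cell cannot be told apart.

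*Nanog* itself (chr6:122707489-122714633 of mm10, plus strand), the gene beside the deletion, was slightly lower on day 6, by much less than the threshold of 1 on the log2 scale used below. Its lowest, median and highest levels over the 6 day 4 libraries were 184, 206 and 234 TPM. On day 6 it was measured at 188 and 145 TPM for ΔK9.1 and 179 and 172 TPM for ΔK9.2 in replicates 2 and 3, in that order as for every gene below. ΔK9.1 replicate 2 lay within the day 4 range and the other day 6 libraries lay below it. The mean of day 4 was 206 ± 17.8 TPM (SD, n = 6) and that of day 6 171 ± 18.6 TPM (SD, n = 4), a log2 fold change of -0.27 (standard error 0.09, limma adjusted p = 0.0267). In a two-sided exact permutation test over the 210 divisions of the 10 libraries, p was 0.0190, where the smallest possible is 0.00952. The change was small in both clones (-0.27 and -0.26), and it was -0.55 in E14Tg2a. Its adjusted p was above 0.05 without replicate 2 of day 4 of either clone, ΔK9.1 replicate 3 of day 6 or either day 6 library of ΔK9.2, where it reached 0.0800, and it was 0.112 without both libraries that stood apart, with a log2 fold change of -0.19.

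Across the transcriptome, 14563 of 16336 genes reached a mean of 1 TPM in any of the 4 groups and were tested on log2(TPM + 1) with limma, with clone as a covariate. Fold changes are on this scale and are therefore understated for genes with low levels. Past the thresholds of an adjusted p under 0.05 and a log2 fold change above 1 in either direction, 702 genes (4.82%) were called higher and 594 (4.08%) lower on day 6, together 8.9% of those tested. Of the 1296 called genes, 894 had an absolute log2 fold change above 1 in each clone taken alone. The ranges of the days did not overlap for 611 of the genes called higher and 465 of those called lower, compared with 22.3% of all genes tested lying entirely above and 10.2% entirely below the day 4 range. The largest changes were gains: 115 genes had a log2 fold change above 2 and 38 above 3, whereas 32 lay below -2 and none below -3. Without ΔK9.1 replicate 3 of day 6 the counts were 868 higher and 772 lower, without ΔK9.2 replicate 1 of day 4 they were 647 and 466, and without both they were 850 and 621. The median log2 fold change over all genes tested was 0.119. Rescaling each library by the median ratio brought it to 0.00174, and 568 genes were then higher and 773 lower, so the share called higher moved from 54.2% to 42.4%.

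Genes of the primitive streak and early mesoderm had the largest median log2 fold change of the lists examined. Of 25 listed genes tested, 22 were higher on day 6, none was lower, and the median log2 fold change was 3.13. The counts were 22 and 0 also without each of the libraries that stood apart, and 23 and 0 without both. With each library left out in turn, 20 to 22 were higher. *T* (Brachyury), the T-box factor that defines the streak and nascent mesoderm, had the largest log2 fold change of all genes tested. On day 4 its lowest, median and highest levels were 0.315, 0.986 and 2.72 TPM. On day 6 it reached 288 and 34.1 TPM for ΔK9.1 and 215 and 249 TPM for ΔK9.2. Every day 6 library lay above every day 4 library, and ΔK9.1 replicate 3 was far below the other 3. The log2 fold change was 6.25 (standard error 0.52, limma adjusted p = 0.000245), with 5.66 in ΔK9.1 and 6.84 in ΔK9.2.

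*Msgn1*, a bHLH factor of presomitic mesoderm, was listed at 0 in most day 4 libraries, its highest level being 0.304 TPM, and reached 71.04 and 8.59 TPM for ΔK9.1 and 34.3 and 51.5 TPM for ΔK9.2 on day 6. The log2 fold change was 4.98 (standard error 0.45, limma adjusted p = 0.000245). *Mixl1*, a paired-like homeobox gene of the streak, lay between 0.131 and 0.562 TPM on day 4 and at 59.1 and 5.24 TPM for ΔK9.1 and 57.9 and 54.7 TPM for ΔK9.2 on day 6. Both showed the pattern of *T*, with the groups apart and ΔK9.1 replicate 3 the lowest day 6 library. The T-box factor *Eomes*, needed for mesoderm and definitive endoderm alike, was already measured at 4.04, 4.92 and 7.30 TPM on day 4 and at 81.2 and 17.6 TPM for ΔK9.1 and 74.1 and 73.4 TPM for ΔK9.2 on day 6. Its log2 fold change was 3.13 (standard error 0.36, limma adjusted p = 0.000292), smaller than that of *T* from a higher starting level. *Mesp1*, which marks the earliest heart and head mesoderm, had a day 4 median of 0.103 TPM and was at 28.1 and 3.92 TPM for ΔK9.1 and 19.6 and 20.6 TPM for ΔK9.2 on day 6, a log2 fold change of 3.75 (standard error 0.42, limma adjusted p = 0.000262).

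Further streak regulators rose in the same way. *Evx1*, a homeobox gene of the posterior streak, had a log2 fold change of 4.36 ± 0.52 (± standard error), the WNT-responsive zinc finger factor *Sp5* of 4.32 ± 0.36, and *Lhx1* and *Gsc*, homeobox genes of the anterior streak and organiser, of 3.55 ± 0.41 and 2.72 ± 0.37. *Snai1*, the repressor of *Cdh1* that drives the epithelial to mesenchymal transition, went from 1.07–1.77 TPM to 5.36–28.1 TPM, and *Tbx6*, a T-box factor of paraxial mesoderm, from 0.449–1.10 TPM to 1.81–11.7 TPM. The highest adjusted p among these 6 was 0.000928 from limma. The 3 listed genes that were not called were *Nodal*, *Dll1* and *Mesp2*. *Nodal*, the ligand that patterns the epiblast, was measured at 14.7–32.2 TPM on day 4 and 27.3–38.3 TPM on day 6 (log2 fold change 0.45, standard error 0.18, limma adjusted p = 0.0583). The Notch ligand *Dll1* had a log2 fold change of 0.43 (standard error 0.29, limma adjusted p = 0.237), and *Mesp2*, of forming somites, had 0.65 (standard error 0.25, limma adjusted p = 0.0509). *Mesp2* ran from 0.37 without ΔK9.1 replicate 2 of day 6 to 0.97 without ΔK9.1 replicate 3 of day 6, and passed without both libraries that stood apart (1.03, limma adjusted p = 0.00119).

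**Figure D1:**
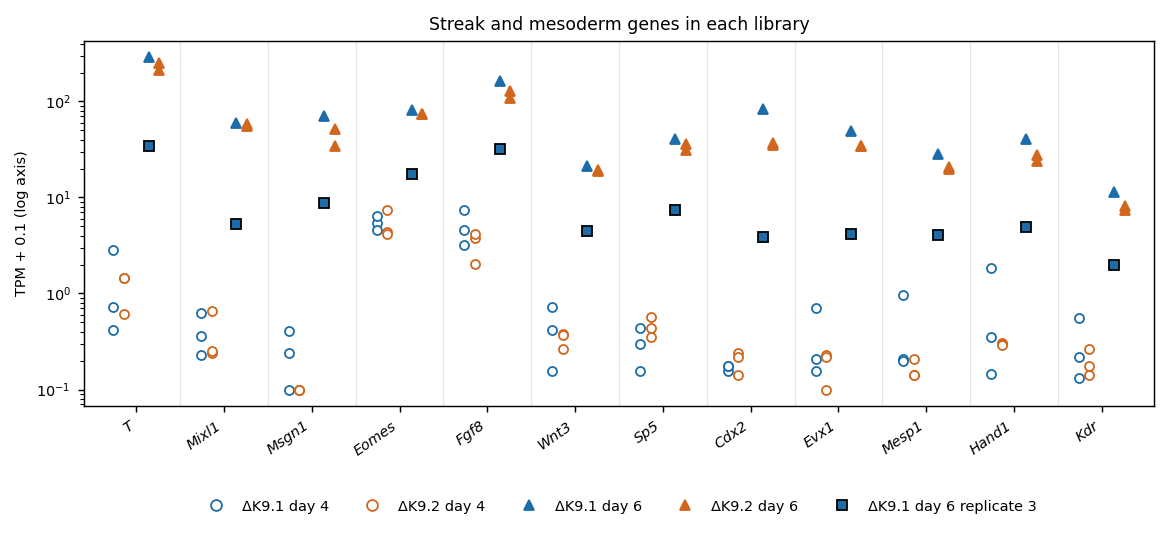
Levels of 12 streak and mesoderm genes in each of the 10 libraries, as TPM + 0.1 on a logarithmic axis, by clone and day, with ΔK9.1 replicate 3 of day 6 drawn as a square. For *T* the day 6 libraries lie at 34.1 to 288 TPM, above a day 4 maximum of 2.72 TPM, and the square is the lowest day 6 point.

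For the pathways of signals known to induce the streak, counts of changed genes are given, and differences between pathways were not tested. In the WNT pathway, 18 of 38 genes tested were higher and none lower (median log2 fold change 0.85), with 19 and 0 without either library that stood apart. Over the fits that left out a library, 15 to 19 were higher. Among the ligands, *Wnt3*, required in the embryo for streak formation, was at 0.0544, 0.275 and 0.628 TPM (lowest, median and highest) on day 4. It was at 21.1 and 4.42 TPM for ΔK9.1 and 18.9 and 19.4 TPM for ΔK9.2 on day 6. Day 4 and day 6 libraries were apart, and the log2 fold change was 3.54 (standard error 0.34, limma adjusted p = 0.000245). *Wnt8a*, a streak ligand, had a log2 fold change of 3.59 ± 0.29 and *Wnt3a*, of the posterior streak and tail bud, of 2.03 ± 0.38, the latter from at most 0.0876 TPM on day 4. *Rspo3*, a secreted enhancer of WNT receptor activity, rose from 0.0438–0.520 TPM to 3.80–40.3 TPM, and *Frzb*, a secreted WNT antagonist, from 0.0865–0.626 TPM to 4.14–33.6 TPM. Of the targets and feedback genes, *Axin2*, a negative regulator induced by β-catenin, rose from 6.54 ± 0.658 TPM (SD, n = 6) to 31.8 ± 13.1 TPM (SD, n = 4), and *Nkd1*, a feedback inhibitor, from 2.91 ± 0.631 TPM (SD, n = 6) to 10.7 ± 5.47 TPM (SD, n = 4), while the receptor *Fzd10* had a log2 fold change of 2.38 ± 0.37. Of the nuclear factors, *Lef1* stayed below the threshold at 0.95 (standard error 0.25, limma adjusted p = 0.0099), and it passed with the replicate number as a block, a fit that compares same-numbered libraries (1.17), without replicate 1 of day 4 of either clone (1.07 and 1.03) and without ΔK9.1 replicate 3 of day 6 (1.22). *Tcf7* had a log2 fold change of -0.56 (standard error 0.10, limma adjusted p = 0.00142), also under the threshold and in the other direction.

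Among FGF and ERK pathway genes, 12 of 30 were higher and 1 lower (median 0.71), with 12 and 2 without ΔK9.1 replicate 3 of day 6 and 10 and 2 after rescaling. *Fgf8*, the ligand that drives cells away from the streak, was at 1.91, 3.87 and 7.23 TPM on day 4 and at 162 and 32.2 TPM for ΔK9.1 and 108 and 128 TPM for ΔK9.2 on day 6. Day 4 and day 6 libraries were apart, and the log2 fold change was 4.27 (standard error 0.41, limma adjusted p = 0.000245). *Fgf5*, the classical ligand of the primed epiblast, was at 15.04–22.9 TPM on day 4 and 47.8–62.5 TPM on day 6 (1.49 ± 0.14), with ΔK9.1 replicate 3 inside the range of the other day 6 libraries. The 1 lower gene was *Fgf4*, the autocrine ligand of naive ES cells, at 62.2 ± 15.7 TPM (SD, n = 6) and 17.6 ± 6.61 TPM (SD, n = 4). ERK-responsive genes rose by similar amounts: *Spry2* by a log2 fold change of 1.17, the phosphatase *Dusp6* by 1.14 and the ETS factor *Etv4* by 1.18, each with a limma adjusted p of at most 0.000524.

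Of 22 BMP pathway genes, 10 were higher and none lower (median 0.90), and 14 were higher without ΔK9.1 replicate 3 of day 6. The count was 8 after rescaling and ran from 8 to 14 over the fits that left out a library. The SMAD targets *Id1* and *Id3*, inhibitors of bHLH factors, went from 29.1–64.7 TPM to 103–194 TPM and from 8.51–18.1 TPM to 61.98–107 TPM. *Msx1* and *Msx2*, homeobox genes induced by BMP, had log2 fold changes of 3.63 ± 0.48 and 2.80 ± 0.38, and the signal transducer *Smad1* of 1.22 ± 0.19. The ligand *Bmp4* overlapped between days: its levels were 2.28, 4.47 and 11.1 TPM on day 4 and 27.95 and 4.06 TPM for ΔK9.1 and 13.7 and 23.1 TPM for ΔK9.2 on day 6. Its log2 fold change of 1.34 (standard error 0.50, limma adjusted p = 0.044) lost its call in 7 of the 10 fits that left out a library, over which it ran from 0.91 to 1.88 with adjusted p-values of up to 0.161. It kept the call in those without ΔK9.1 replicate 2 or ΔK9.2 replicate 1 of day 4 or ΔK9.1 replicate 3 of day 6, and lost it after rescaling (1.23, limma adjusted p = 0.0591), with no minimum, without the trend and in each clone alone.

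In the Nodal pathway 3 of 22 genes were higher and 2 lower, and the counts were 1 and 1 without ΔK9.1 replicate 2 of day 6. *Fst*, a secreted inhibitor of activins, had one of the largest gains in the data, from 0.497, 2.87 and 7.47 TPM on day 4 to 203 and 50.5 TPM for ΔK9.1 and 132 and 158 TPM for ΔK9.2 on day 6. No library of day 6 overlapped with day 4, and the log2 fold change was 4.95 (standard error 0.51, limma adjusted p = 0.000254). The 2 lower genes were the Nodal antagonists *Lefty1* (98.04 ± 29.5 TPM on day 4 and 46.7 ± 13.7 TPM on day 6, SD, n = 6 and 4) and *Lefty2* (62.7 ± 25.2 TPM on day 4 and 27.9 ± 5.59 TPM on day 6, SD, n = 6 and 4). Their log2 fold changes of -1.04 and -1.05 lay close to the threshold, and their calls were lost without ΔK9.1 replicate 2 or ΔK9.2 replicate 3 of day 6 for *Lefty1* (-0.93 and -0.98) and without ΔK9.1 replicate 3 or ΔK9.2 replicate 1 of day 4 or ΔK9.1 replicate 3 of day 6 for *Lefty2* (-0.99 to -0.97).

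Of 16 retinoic acid pathway genes, 6 were higher and 1 lower (median 0.80). *Cyp26a1*, which degrades retinoic acid, was at 1.07, 3.59 and 22.04 TPM on day 4 and 92.6 and 13.6 TPM for ΔK9.1 and 78.7 and 81.6 TPM for ΔK9.2 on day 6, so that ΔK9.1 replicate 3 lay within the day 4 range. This gave a log2 fold change of 3.35 (standard error 0.57, limma adjusted p = 0.00105). *Aldh1a2*, which makes retinoic acid, rose by 2.24. The lower gene was *Stra8*, a retinoic acid target of germ cells (-1.75 ± 0.32).

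Anterior to posterior patterning genes rose broadly: 22 of 34 tested Hox, Cdx, Meis and Pbx genes were higher and none lower (median 1.22). Without ΔK9.1 replicate 3 of day 6 the count was 28, and without ΔK9.1 replicate 2 of day 6, the library in which each of the genes named next was highest, it was 15. *Cdx2*, the homeobox regulator of the posterior body and a trophoblast factor, was at 0.0432, 0.0762 and 0.140 TPM on day 4. It was at 83.7 and 3.74 TPM for ΔK9.1 and 35.2 and 36.8 TPM for ΔK9.2 on day 6, the lowest and the highest both in ΔK9.1. This gave a log2 fold change of 4.65 (standard error 0.60, limma adjusted p = 0.000365). *Hoxb1*, an early collinear Hox gene, went from a day 4 median of 0.0435 TPM to 3.18–27.9 TPM and *Hoxb2* from 0.0216 TPM to 2.03–18.4 TPM. The more posterior *Hoxd9* had a log2 fold change of 2.80 ± 0.46. The Hox cofactors *Meis2* and *Pbx3*, both already measured on day 4, had 2.57 ± 0.37 and 1.57 ± 0.27.

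For mesoderm derivatives the counts varied from list to list, and differences between lists were not tested. Of 23 genes of lateral and extra-embryonic mesoderm, 16 were higher and none lower (median 1.45), 18 without ΔK9.1 replicate 3 of day 6. The count was 14 after rescaling and ran from 13 to 18 over the fits that left out a library. *Hand1*, a bHLH factor of these tissues, had levels of 0.0435, 0.200 and 1.75 TPM on day 4 and 40.9 and 4.82 TPM for ΔK9.1 and 23.96 and 27.8 TPM for ΔK9.2 on day 6. Day 4 and day 6 libraries were apart, and the log2 fold change was 3.92 (standard error 0.49, limma adjusted p = 0.000353). *Igf2*, an imprinted growth factor abundant in extra-embryonic mesoderm, rose from 5.19–9.22 TPM to 35.8–166 TPM. *Foxf1*, a forkhead factor of lateral mesoderm, was at or near 0 on day 4 (at most 0.174 TPM) and at 10.5 and 0.573 TPM for ΔK9.1 and 3.52 and 4.65 TPM for ΔK9.2 on day 6.

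Of 17 endothelial genes 5 were higher and 1 lower, and 10 had negative values (median -0.19). Of 11 blood genes 2 were higher and 1 lower (1 and 1 with the replicate block, 4 and 2 without ΔK9.1 replicate 3 of day 6). The 4 endothelial markers summed to 2.98 to 6.47 TPM on day 4 and 12.8 to 28.7 TPM on day 6, and the 4 blood markers to 0.646 to 1.31 TPM and 1.97 to 15.4 TPM. Most of the endothelial sum came from *Kdr* and *Etv2*. The median of *Tek* went from 1.78 to 1.06 TPM, and *Cdh5* rose from at most 0.140 TPM to at most 0.685 TPM. *Kdr*, the VEGF receptor of blood and vessel progenitors, rose from 0.0326–0.455 TPM to 1.88–11.4 TPM. The apelin receptor gene *Aplnr*, an early marker of mesoderm, had a log2 fold change of 3.98 ± 0.39. *Etv2* and *Lmo2*, regulators of the haemato-endothelial lineage, went from 2.70 ± 1.26 TPM (SD, n = 6) to 11.5 ± 2.95 TPM (SD, n = 4) and from 2.04 ± 0.963 TPM (SD, n = 6) to 11.1 ± 4.95 TPM (SD, n = 4). The lower endothelial gene was *Pecam1*, an adhesion molecule that ES cells also express (37.1 ± 10.3 TPM on day 4 and 8.40 ± 3.24 TPM on day 6, SD, n = 6 and 4). The embryonic globin gene *Hbb-bh1* was listed at 0 in all 6 day 4 libraries and in both ΔK9.1 libraries of day 6, and at 13.5 and 1.33 TPM in ΔK9.2, with a limma adjusted p of 0.0727. In ΔK9.2 alone it was called (log2 fold change 2.54, limma adjusted p = 0.0383).

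Of 20 genes of cardiac mesoderm and heart muscle, 12 were higher and none lower (median 1.36). Those with large gains included genes of smooth or immature muscle: *Tagln* (1.91–25.6 TPM and 33.02–84.6 TPM), *Acta2* (0.318–1.99 TPM and 3.99–11.9 TPM) and the slow troponin gene *Tnnc1* (0.626–3.33 TPM and 4.66–9.24 TPM), with log2 fold changes of 2.83, 2.45 and 1.71. Cardiac actin, *Actc1*, had 1.56 (standard error 0.32, limma adjusted p = 0.00269), with ΔK9.1 replicate 3 inside the day 4 range. The atrial myosin light chain gene *Myl7* (-0.77, standard error 0.18, limma adjusted p = 0.00475) and the ventricular *Myl3* (-0.91, standard error 0.31, limma adjusted p = 0.0315) had negative values that did not pass the threshold, although *Myl3* passed with the replicate block (-1.01) and without replicate 3 of day 6 of either clone (-1.15 and -1.19), and the summed level of the 4 heart muscle markers was 6.20 to 9.91 TPM on day 4 and 6.10 to 9.56 TPM on day 6. Paraxial mesoderm and somite genes gave 4 higher and 1 lower of 8 (2 higher without ΔK9.1 replicate 2 of day 6).

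Genes of adhesion, matrix and the cytoskeleton accompanied these changes. Of 24 genes of the epithelial to mesenchymal transition, 13 were higher and none lower (median 1.11). *Cdh2* (N-cadherin) was at 1.46, 2.06 and 4.10 TPM on day 4 and at 75.3 and 15.01 TPM for ΔK9.1 and 49.3 and 54.5 TPM for ΔK9.2 on day 6. The days did not overlap, and the log2 fold change was 3.72 (standard error 0.38, limma adjusted p = 0.000254). The intermediate filament gene *Vim* rose from 8.35–20.03 TPM to 44.7–170.1 TPM, the mesenchymal cadherin gene *Cdh11* by a log2 fold change of 3.33 ± 0.41, and *Twist1*, a bHLH factor of mesenchyme, by 1.80 ± 0.24. The epithelial adhesion genes *Cdh1* (E-cadherin) and *Epcam* had negative values under the threshold. *Cdh1* was at 150.0–157 TPM on day 4 and at 91.5 and 155 TPM for ΔK9.1 and 119 and 112 TPM for ΔK9.2 on day 6, a log2 fold change of -0.39 (standard error 0.12, limma adjusted p = 0.0182), and *Epcam* had -0.49 (standard error 0.11, limma adjusted p = 0.00465).

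Among targets of SRF and YAP, the factors that respond to actin tension, 12 of 24 were higher and none lower (median 0.94). The matricellular gene *Ccn1* went from 5.02–21.4 TPM to 32.4–52.2 TPM, *Thbs1* (thrombospondin) from 0.239–2.90 TPM to 4.98–7.87 TPM, and *Amotl2*, a YAP regulator and target, from 13.4–28.5 TPM to 55.6–81.1 TPM. In ΔK9.1 replicate 3 these genes were at 33.9, 7.87 and 55.6 TPM, near the other day 6 libraries, whereas *Acta2* (smooth muscle actin) and *Zyx* were lower there, at 3.99 and 35.99 TPM. Integrin and focal adhesion genes gave 13 higher and 2 lower of 63, led by the zyxin gene *Zyx* (8.93, 12.3 and 16.9 TPM on day 4, 71.8 and 35.99 TPM for ΔK9.1 and 73.6 and 72.1 TPM for ΔK9.2 on day 6, log2 fold change 2.25, standard error 0.20, limma adjusted p = 0.000245). Collagens and matrix-modifying enzymes gave 11 higher and 1 lower of 30 (median 0.61). The fibrillar collagen genes *Col1a1* and *Col3a1* were low on both days, at most 0.356 and 0.110 TPM on day 4 and 1.18–3.74 TPM and 1.68–2.21 TPM on day 6. Immediate early genes gave 3 higher and 1 lower of 17.

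**Figure D2:**
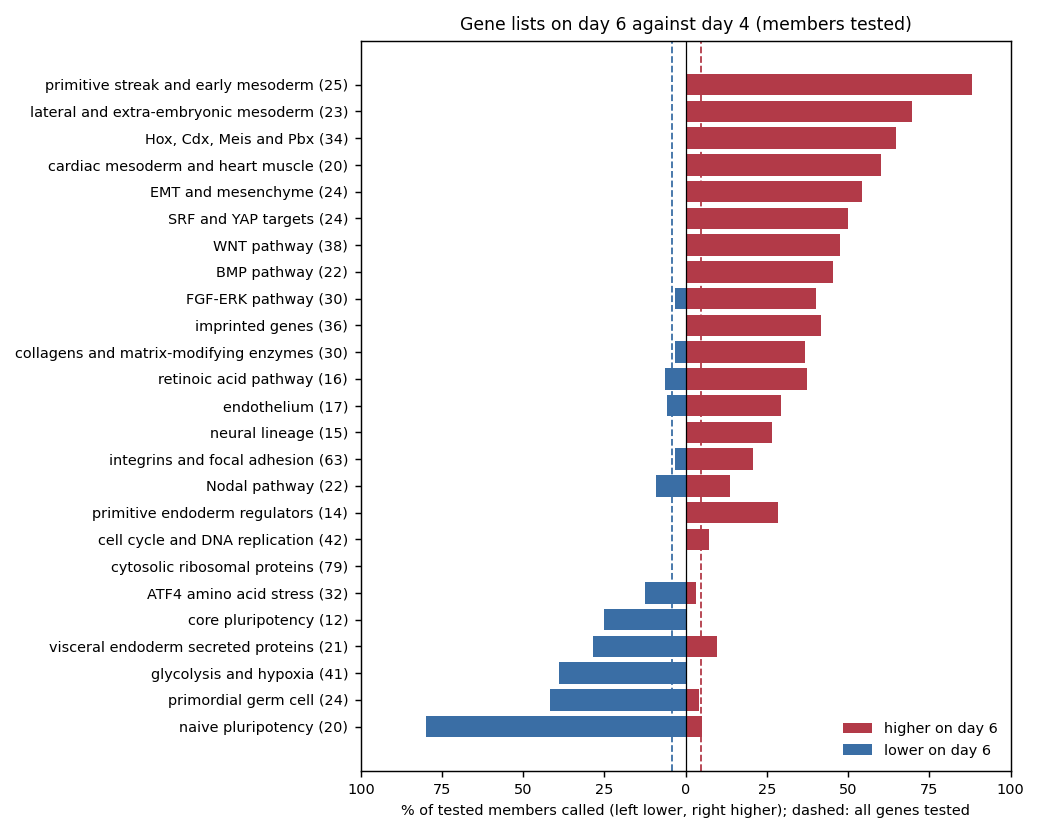
Share of the tested members of 25 gene lists called higher (to the right) or lower (to the left) on day 6, in percent, with dashed lines at the shares over all genes tested (4.82% and 4.08%). Streak genes reach 88.0% higher and naive pluripotency genes 80.0% lower.

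Most of the naive pluripotency programme was lower on day 6: 16 of 20 genes were lower and 1 higher (median -1.44). Without ΔK9.1 replicate 3 of day 6 the counts were 15 and 1, and without ΔK9.2 replicate 1 of day 4 14 and 1. *Esrrb*, an orphan nuclear receptor of the naive network, was at 60.98, 103 and 124 TPM on day 4. It was at 28.03 and 44.9 TPM for ΔK9.1 and 16.6 and 18.8 TPM for ΔK9.2 on day 6. The days did not overlap, ΔK9.1 replicate 3 had the highest day 6 level, and the log2 fold change was -1.93 (standard error 0.21, limma adjusted p = 0.000261). *Zfp42* (Rex1), a standard marker of naive cells, was at 85.6, 174 and 229 TPM on day 4 and 74.3 and 93.6 TPM for ΔK9.1 and 50.7 and 43.7 TPM for ΔK9.2 on day 6, with 1 library overlapping and a log2 fold change of -1.39 (standard error 0.23, limma adjusted p = 0.000937).

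*Nr0b1* (Dax1), a corepressor in the same network, had a log2 fold change of -1.90 ± 0.24, *Tfcp2l1* of -1.58 ± 0.28, *Klf2* of -1.37 ± 0.21 and *Dppa5a*, an RNA-binding protein gene, of -1.91 ± 0.25, the last from a day 4 mean of 3667 TPM. *Spp1* (osteopontin), like *Esrrb*, was highest on day 6 in ΔK9.1 replicate 3 (67.7 TPM, the others at 24.98 to 38.8 TPM). *Klf4* and *Klf5* were already low on day 4 (means of 3.56 and 15.6 TPM) and had log2 fold changes of -0.67 and -0.67, with limma adjusted p-values of 0.0419 and 0.014. The 1 higher gene, *Gbx2*, is a homeobox gene of both naive cells and the posterior epiblast, and its levels were 1.01–2.46 TPM on day 4 and 28.4 and 5.04 TPM for ΔK9.1 and 10.4 and 14.6 TPM for ΔK9.2 on day 6.

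The core factors did not move together. Of 12 genes, 3 were lower and none higher (median -0.11): the chromatin-associated *Dppa4* (-1.65 ± 0.19) and *Utf1* (-1.10 ± 0.21), and the methyltransferase cofactor *Dnmt3l* (-1.42 ± 0.21). *Pou5f1* (OCT4) was at 1086, 1271 and 1346 TPM on day 4 and 1230.4 and 1369 TPM for ΔK9.1 and 1665 and 1376 TPM for ΔK9.2 on day 6, and its log2 fold change of 0.17 (standard error 0.09, limma adjusted p = 0.144) was not called. *Sox2* was at 191, 268 and 324 TPM on day 4 and 119 and 204 TPM for ΔK9.1 and 127 and 126 TPM for ΔK9.2 on day 6, and ΔK9.1 replicate 3 lay within the day 4 range. Its log2 fold change of -0.91 (standard error 0.16, limma adjusted p = 0.0013) fell just short of the threshold, and it passed without that library (-1.08), without ΔK9.2 replicate 3 of day 4 (-1.001) or after rescaling (-1.04). *Sall4* and the RNA-binding protein gene *Lin28a* had positive values under the threshold (0.62, standard error 0.09, limma adjusted p = 0.000462 and 0.76, standard error 0.09, limma adjusted p = 0.000354), with no overlap between days. *Utf1*, a chromatin factor, was at 353–456 TPM on day 4 and 107–283 TPM on day 6, and its call was lost without ΔK9.1 replicate 2 of day 6 (-0.84). Of 22 formative and primed epiblast genes, 7 were higher and 2 lower (median 0.62), *Fgf5* among the former, and 7 and 1 without ΔK9.2 replicate 1 of day 4.

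**Figure D3:**
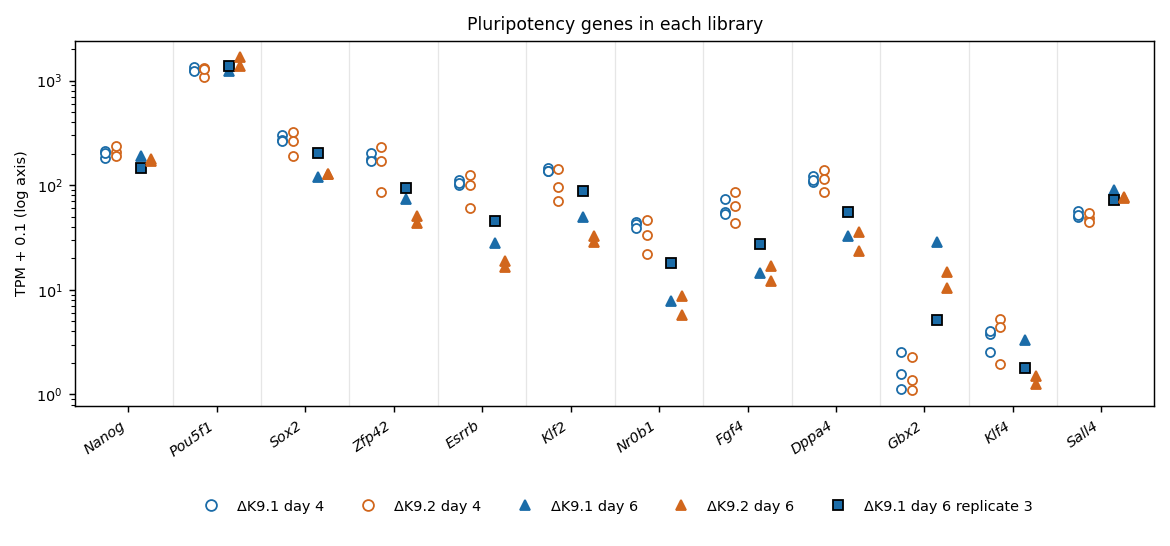
Levels of 12 pluripotency genes in each of the 10 libraries, as TPM + 0.1 on a logarithmic axis, by clone and day, with ΔK9.1 replicate 3 of day 6 drawn as a square. *Esrrb* falls from 61.0 to 124 TPM on day 4 to 16.6 to 44.9 TPM on day 6, *Pou5f1* overlaps between days, and *Gbx2* is higher in every day 6 library.

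Several germ cell genes were lower. Of 24 primordial germ cell genes, 10 were lower and 1 higher (median -0.87), with 8 and 1 without ΔK9.2 replicate 1 of day 4. *Mael*, of the piRNA pathway, was at 9.16, 23.9 and 29.3 TPM on day 4 and 2 and 4.76 TPM for ΔK9.1 and 4.63 and 2.85 TPM for ΔK9.2 on day 6. The days did not overlap, and the log2 fold change was -2.25 (standard error 0.26, limma adjusted p = 0.000307). *Dazl*, a germ cell RNA-binding protein gene, went from 5.61 ± 2.81 TPM (SD, n = 6) to 1.07 ± 0.445 TPM (SD, n = 4) and *Sycp3*, of the synaptonemal complex, from 76.8 ± 25.4 TPM (SD, n = 6) to 26.7 ± 6.97 TPM (SD, n = 4). The AKT coactivator gene *Tcl1*, shared with the naive state, had a log2 fold change of -1.82 ± 0.29. Among the 12 largest decreases without overlap were 2 further germ cell genes, *Syce3* of the synaptonemal complex (10.3–15.5 TPM and 0.575–3.95 TPM) and the bHLH gene *Sohlh2* (9.60–27.4 TPM and 1.64–8.13 TPM).

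The largest decrease of any gene was that of *Mymx* (Myomixer), a small membrane protein gene known for myoblast fusion. Its levels were 46.6, 84.7 and 121 TPM on day 4 and 12.6 and 20.3 TPM for ΔK9.1 and 5.21 and 6.22 TPM for ΔK9.2 on day 6. The days did not overlap, and the log2 fold change was -2.93 (standard error 0.22, limma adjusted p = 0.000245). *Rmrp*, the RNA component of RNase MRP, followed at -2.76 ± 0.32, although poly-A selection captures such an RNA poorly. The other large decreases included *Gstp2*, a glutathione transferase gene with close paralogues (-2.47 ± 0.39), *Sult6b1*, a sulfotransferase gene (-2.43 ± 0.35), *Tuba3a*, a tubulin gene whose reads could be divided with its near-identical copies (-2.33 ± 0.38), and *Copz2*, a coatomer subunit gene (-2.28 ± 0.31).

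Of 41 genes of glycolysis and the hypoxia response, 16 were lower on day 6 and none higher (median -0.61). The count was 17 without ΔK9.1 replicate 3 of day 6, 9 without ΔK9.2 replicate 1 of day 4, 8 without ΔK9.2 replicate 2 of day 6 and 9 with the block. *Ndufa4l2*, a mitochondrial protein gene induced by hypoxia that is not on the list but is among the 12 largest decreases, was at 63.4, 86.3 and 124 TPM on day 4 and 15.2 and 28.6 TPM for ΔK9.1 and 11.4 and 18.3 TPM for ΔK9.2 on day 6. No library overlapped between days, and the log2 fold change was -2.27 (standard error 0.23, limma adjusted p = 0.000254). *Adm* (adrenomedullin), another hypoxia target, was at 5.16–10.96 TPM on day 4 and 0.719–2.70 TPM on day 6, and *Ndrg1* at 18.6–54.6 TPM and 7.97–15.1 TPM. Of the enzymes, the phosphofructokinase gene *Pfkp* had a log2 fold change of -1.62 ± 0.27, the lactate dehydrogenase gene *Ldhb* of -1.25 ± 0.17 and the hexokinase gene *Hk1* of -1.17 ± 0.18. *Ldha*, the other lactate dehydrogenase gene and the most abundant of those named, had a positive value under the threshold, 0.53 (standard error 0.13, limma adjusted p = 0.00628), at 1681 TPM on day 4 and 2438 TPM on day 6 on average.

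Of 32 targets of ATF4 in amino acid stress, 1 was higher and 4 were lower, with a median of 0.27. *Ddit3* (CHOP) was at 33.7, 48.4 and 94.7 TPM on day 4 and 7.10 and 12.5 TPM for ΔK9.1 and 7.07 and 10.8 TPM for ΔK9.2 on day 6. No library overlapped between days, and the log2 fold change was -2.35 (standard error 0.24, limma adjusted p = 0.000254). *Nupr1*, a small stress-induced chromatin protein gene, had -2.19 ± 0.23 and the stress cytokine gene *Gdf15* -1.33 ± 0.25. Of 28 cell cycle inhibitors and p53 targets, 1 was higher and 3 were lower. The lower genes were the stress sensors *Gadd45b* (52.9 ± 10.3 TPM on day 4 and 13.4 ± 4.83 TPM on day 6, SD, n = 6 and 4) and *Gadd45g* (20.6 ± 7.73 TPM on day 4 and 7.30 ± 1.39 TPM on day 6, SD, n = 6 and 4), and *Cdkn2a*, which encodes p16 and p19ARF (23.9 ± 7.81 TPM on day 4 and 8.15 ± 4.32 TPM on day 6, SD, n = 6 and 4).

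**Figure D4:**
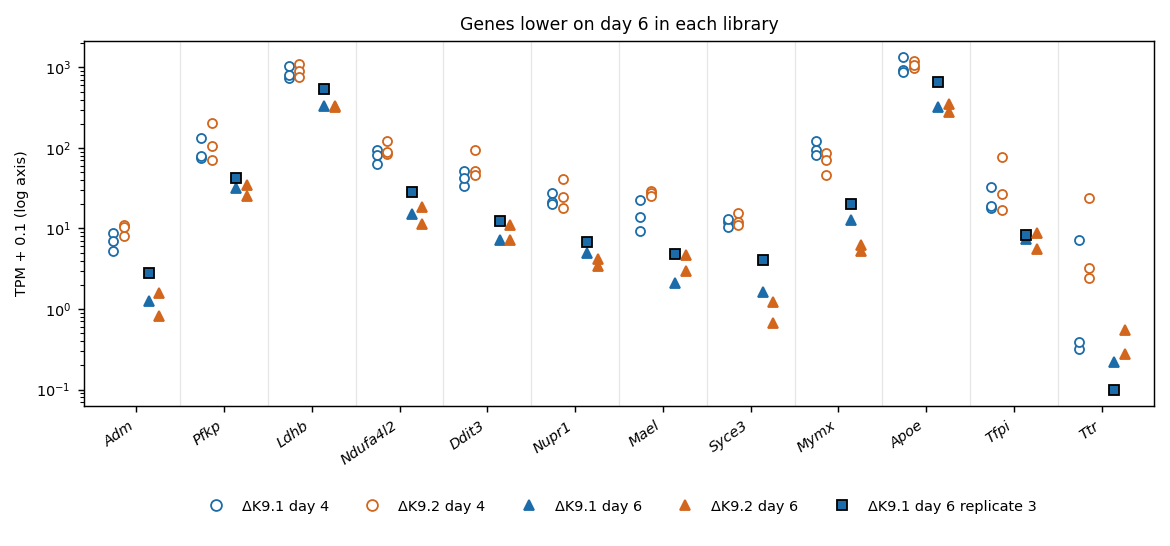
Levels of 12 genes of hypoxia and metabolism, stress, germ cells and visceral endoderm in each of the 10 libraries, as TPM + 0.1 on a logarithmic axis, by clone and day, with ΔK9.1 replicate 3 of day 6 drawn as a square. *Mymx* lies at 46.6 to 121 TPM on day 4 and 5.21 to 20.3 TPM on day 6, and *Ttr* has the widest spread on day 4, from 0.217 to 23.9 TPM.

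Endoderm genes gave a divided picture. Of 21 secreted proteins of visceral endoderm, 6 were lower and 2 higher (median -0.999), with 5 and 3 without ΔK9.2 replicate 1 of day 4 and 4 and 2 without ΔK9.1 replicate 3 of day 6. In all, 18 of the 21 had negative values, and the largest gain was that of *Igf2*, described above with mesoderm. *Apoe*, a lipid carrier that ES cells also express, was at 891, 1036 and 1336 TPM on day 4 and 325 and 658 TPM for ΔK9.1 and 278 and 354 TPM for ΔK9.2 on day 6, a log2 fold change of -1.47 (standard error 0.20, limma adjusted p = 0.000452), and *Tfpi*, a coagulation inhibitor, had -1.75 (standard error 0.36, limma adjusted p = 0.00275). The defining markers were low and uneven on day 4. *Ttr* (transthyretin) was at 0.217, 2.71 and 23.9 TPM and *Afp* (α-fetoprotein) at 0, 3.25 and 42.5 TPM, both highest in ΔK9.2 replicate 1, and on day 6 neither was above 0.445 TPM. Their log2 fold changes were -1.78 (standard error 0.66, limma adjusted p = 0.043) and -2.29 (standard error 0.82, limma adjusted p = 0.0393). Both lost their calls without ΔK9.1 replicate 1 of day 4 or any of the day 6 libraries, and *Ttr* also without ΔK9.2 replicate 1 of day 4 (-1.30, limma adjusted p = 0.0505) and with the block (-0.87). Visceral endoderm receptors gave 1 higher (none with the block) and none lower of 17. Their counts were 0 and 2 after median-ratio rescaling, 1 and 5 with a pseudocount of 0.1, and 1 and 2 without ΔK9.1 replicate 3 of day 6 or replicate 2 of day 4.

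Of 14 regulators of primitive endoderm, 4 were higher and none lower, 5 without either library that stood apart. The median was 0.22, with 8 positive and 6 negative values. The endoderm marker *Hnf4a* went the other way, from 0.493–5.21 TPM on day 4 to 0.0868–0.385 TPM on day 6. *Pdgfra*, its receptor tyrosine kinase gene and also a gene of mesoderm, was at 0.0767, 0.320 and 3.54 TPM on day 4 and 14.4 and 1.70 TPM for ΔK9.1 and 8.28 and 8.26 TPM for ΔK9.2 on day 6 (log2 fold change 2.30, standard error 0.47, limma adjusted p = 0.00253). *Foxa2*, of endoderm and the anterior streak, had 1.41 (standard error 0.32, limma adjusted p = 0.00425). It lost its call in each clone alone (1.72 in ΔK9.1, limma adjusted p = 0.0511, and 1.10 in ΔK9.2, limma adjusted p = 0.0815). *Gata4* was at 0.541, 0.686 and 6.30 TPM on day 4 and 12.6 and 1.53 TPM for ΔK9.1 and 7.27 and 4.94 TPM for ΔK9.2 on day 6, and *Gata6* at 0.351, 0.633 and 5.50 TPM and 9.06 and 0.892 TPM for ΔK9.1 and 7.23 and 4.40 TPM for ΔK9.2. The day 4 maximum of each was ΔK9.2 replicate 1, the groups overlapped, and the log2 fold changes were 1.55 (standard error 0.50, limma adjusted p = 0.0249) and 1.41 (standard error 0.49, limma adjusted p = 0.0326). Both lost their calls without replicate 2 of day 6 of either clone or ΔK9.2 replicate 2 of day 4, which left 2 of the 14 genes called, and *Gata6* also without ΔK9.1 replicate 2 or 3 or ΔK9.2 replicate 3 of day 4, or ΔK9.2 replicate 3 of day 6. In the fits that lost the call, the values were as low as 1.05 for *Gata4* and 0.94 for *Gata6*, both without ΔK9.1 replicate 2 of day 6. Each clone alone lost the call of both genes as well, and *Gata6* lost it with all 33 libraries in the fit. *Sox17* overlapped likewise and was not called (1.29, standard error 0.58, limma adjusted p = 0.0845), but it passed with the replicate block (1.85), without ΔK9.1 replicate 3 of day 6 (1.72) and without ΔK9.2 replicate 1 of day 4 (1.69). Without ΔK9.1 replicate 2 of day 6 its value was 0.70 (limma adjusted p = 0.299). These regulators and the streak genes were both expressed on day 6, and their division among cell types was not tested. Definitive endoderm genes gave 4 higher and 1 lower of 17, parietal endoderm 4 and 2 of 17, and basement membrane 2 and 2 of 23, and none of these was lower with the block. The largest gains on the definitive and parietal lists were those of *Gsc* and *Fst*, both given above. With each library left out in turn, the number lower ran from 0 to 2 for definitive and for parietal endoderm and from 0 to 3 for basement membrane.

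Lists of ectoderm and trophoblast had between 19.2% and 30% of their genes higher, compared with 4.82% of all genes tested, some of them genes shared with mesoderm. Neural genes gave 4 higher and none lower of 15 (5 and 3 without ΔK9.1 replicate 3 of day 6, 2 and 0 with the block), including the fatty acid carrier *Fabp7* (0–1.78 TPM and 7.005–17.2 TPM) and the filament gene *Nes* (3.08–22.3 TPM and 28.2–46 TPM), which mesoderm also expresses, while the 3 of 4 neural markers in the table summed to 18.8 to 37.6 TPM on day 4 and 20.9 to 28.8 TPM on day 6. The medians of these neural markers on day 4 and day 6 were 4.13 and 2.06 TPM for *Pax6*, 0.332 and 1.84 TPM for *Sox1* and 18.1 and 19.5 TPM for *Tubb3*. Neural crest gave 3 higher of 10 (5 without ΔK9.1 replicate 3 of day 6), surface ectoderm and simple epithelium 5 higher and 1 lower of 26, and trophoblast 4 higher of 15, *Cdx2* among them. Median log2 fold changes were 0.61 for neural genes and 0.80 for neural crest. They were -0.17 for surface ectoderm, with 15 genes negative, and -0.12 for trophoblast, with 8 negative. With each library left out in turn, 1 to 3 genes of surface ectoderm and 0 to 2 of trophoblast were lower.

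Of 36 imprinted genes, 15 were higher and none lower (median 0.70), and the count was 15 higher and 2 lower without ΔK9.1 replicate 3 of day 6. Apart from *Igf2*, the zinc finger gene *Peg3* was at 3.72, 11.4 and 22.4 TPM on day 4 and 97.3 and 16.9 TPM for ΔK9.1 and 85.6 and 103 TPM for ΔK9.2 on day 6, where ΔK9.1 replicate 3 lay within the day 4 range, a log2 fold change of 2.47 (standard error 0.42, limma adjusted p = 0.00103). *Peg10*, a gene derived from a retrotransposon, had 1.84 ± 0.28, the Notch-like ligand gene *Dlk1* 1.99 ± 0.33, and *Magel2*, of the ubiquitin pathway, 2.48 ± 0.30. On day 6 *Magel2* was at 19.1 and 24.9 TPM in ΔK9.2 and at 9.51 and 9.39 TPM in ΔK9.1, and its change was not called as differing between the clones.

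Of 42 cell cycle and replication genes 3 were higher and none lower (median 0.16), where 4.82% of all genes tested were higher, so the count stands near the background. The cyclin genes *Ccnd2* and *Ccne2* had log2 fold changes of 1.31 ± 0.30 and 1.45 ± 0.16, and the growth regulator *Myc* rose from 4.39–7.43 TPM to 12.9–26.1 TPM. Of 32 Polycomb subunits, 3 (9.38%) were higher and 2 (6.25%) lower, and 2 and 1 with the block. Over all genes tested the shares were 4.82% and 4.08%, so these counts also stand near the background. *Phc2* and *Cbx2*, of PRC1, rose from 12.3 ± 3.57 TPM (SD, n = 6) to 47.04 ± 11.1 TPM (SD, n = 4) and from 12.03 ± 1.60 TPM (SD, n = 6) to 29.2 ± 6.12 TPM (SD, n = 4), and *Ezh1*, the less active methyltransferase of PRC2, fell from 31.4 ± 9.09 TPM (SD, n = 6) to 12.7 ± 4.68 TPM (SD, n = 4).

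Of 18 DNA methylation genes, 1 was higher and 3 were lower (2 with the block). The higher gene was *Tet3* (1.11 ± 0.16) and the lower ones *Dnmt3l* (-1.42 ± 0.21), *Tet2* (-1.49 ± 0.26) and *Tet1* (-1.08 ± 0.16), so that the TET dioxygenases of 5-methylcytosine moved in both directions. *Tet1* was short of the threshold with the replicate block and without ΔK9.2 replicate 1 of day 4 (-0.98 in both). None of 79 cytosolic ribosomal protein genes was called, although 75 of them had negative values (median -0.21, and -0.34 after rescaling). The 11 mitochondrial genome transcripts were all positive and not called (median 0.43), although 1 was called higher with the block and 1 without both libraries that stood apart. Of 10 genes around *Nanog* on chromosome 6, 1 was lower, the germ cell and naive marker *Dppa3*.

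The same interval was compared with that of E14Tg2a in a fit of 15 libraries that tests the difference between the changes. Of 15008 genes tested, none (0%) was called (limma, lowest adjusted p 0.0669), with 1311 at an unadjusted p under 0.05, and other fits called 0 to 14. Fits that left out a library called 0 to 161, the most without ΔK9.1 replicate 2 of day 6. The following genes were chosen after their values were seen. *Cfc1* (Cryptic), a Nodal co-receptor, had a log2 fold change of 0.95 in the clones and 3.60 in E14Tg2a, a difference of -2.65 (95% interval -3.52 to -1.78, limma adjusted p = 0.0669). Its day 6 levels were 13 and 5.30 TPM for ΔK9.1 and 6.42 and 6.27 TPM for ΔK9.2, and the E14Tg2a mean was 38.3 TPM (n = 2). For *Col1a1* the changes were 1.48 and 3.58, a difference of -2.10 (-2.84 to -1.36, limma adjusted p = 0.0669). *Cfc1* passed with the replicate block, a fit that called 4 genes, all with a lower log2 fold change in the clones (*Cfc1*, *Ackr3*, *Lgals3* and *Myl7*). It also passed with no minimum, without the trend and without ΔK9.1 replicate 2 or 3 of day 6, and *Col1a1* with no minimum, without the trend and without E14Tg2a replicate 3 of day 6.

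Among the mesoderm genes described above, the log2 fold change of *Hand1* was 3.92 in the clones and 6.67 in E14Tg2a (difference -2.75, limma adjusted p = 0.289), that of *Foxf1* 2.14 and 4.81 (adjusted p = 0.254) and that of *Kdr* 2.66 and 4.41 (adjusted p = 0.327). *Fgf5* had 1.49 in the clones and 0.13 in E14Tg2a (difference 1.36, interval 0.69 to 2.04, adjusted p = 0.157) and *Gadd45g* -1.32 and 0.64 (adjusted p = 0.254). *T*, at 6.25 and 6.70, *Cdx2*, at 4.65 and 4.95, and *Esrrb*, at -1.93 and -2.19, had close values. The genes called without ΔK9.1 replicate 2 of day 6 included *Foxf1*, *Mesp1*, *Mesp2*, *Aplnr* and *Hand2*. The intervals are wide, and with 2 day 6 libraries per line a difference that was not called is not shown to be absent. Between the clones no gene (0%) was called as changing differently (limma, lowest adjusted p 0.117, 319 of 14563 at an unadjusted p under 0.05), and fits that left out a library called 0 to 8, the most without ΔK9.1 replicate 2 of day 6, *Cdx2*, *Mixl1* and *Evx1* among them.

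Days 0 and 8 of the same clones place the interval in the course of differentiation. In the means over both clones for days 0, 4, 6 and 8, in that order, *T* was at 0.440, 1.15, 196 and 71.9 TPM, and *Eomes* at 2.69, 5.29, 61.6 and 24.1 TPM. *Hand1* and *Igf2* went on to 287 and 1660.0 TPM on day 8, and *Cdx2* to 104 TPM. *Esrrb* was at 311, 100.7, 27.1 and 12.1 TPM over the 4 days and *Nanog* at 447, 206, 171 and 102 TPM. *Ddit3* and *Gadd45b* had their lowest mean on day 6: *Ddit3* was at 45.3, 53.3, 9.37 and 29.2 TPM over the 4 days, and *Gadd45b* at 22.7, 52.9, 13.4 and 54.6 TPM. *Adm* was at 0.595 TPM on day 0, highest on day 4 at 8.32 TPM, and at 1.52 and 3.45 TPM later. These courses are descriptions, and days other than 4 and 6 were not tested.

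**Figure D5:**
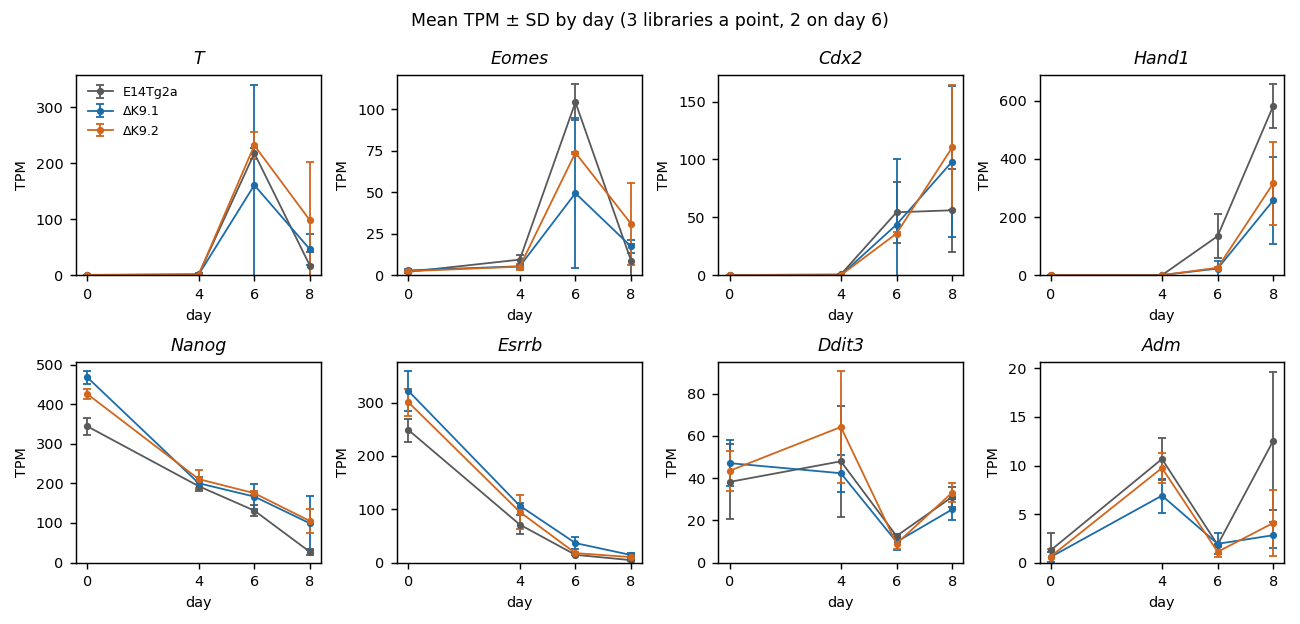
Mean TPM ± SD of 8 genes on days 0, 4, 6 and 8 in E14Tg2a, ΔK9.1 and ΔK9.2 (n = 3 libraries per line and day, 2 on day 6), with bars ending at 0 where the SD exceeds the mean. In the mean over both clones *T* goes from 1.15 TPM on day 4 to 196 TPM on day 6 and 71.9 TPM on day 8, and *Ddit3* has its low point, 9.37 TPM, on day 6.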

How the data were processed

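RNA-seq libraries were stranded, poly-A selected and read from both ends. TPM were computed by the authors with RSEM after alignment to mm10 with STAR, as deposited. Tool versions and the gene annotation are not given in the sources used here. Libraries found far from the others by PCA were omitted by the authors, and day 6 has replicates 2 and 3 only. The 22 columns of the authors' own comparisons (DESeq2 log2 fold changes and FDR from rounded RSEM counts) were not used. The TPM of a library add up to 995235 to 997298, and 12903 to 13516 genes reach 1 TPM. The depth of single libraries cannot be recovered from TPM, so precision rests on the libraries, whose median residual SD was 0.211 on the log2 scale.

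Values were tested as log2(TPM + 1) in R 4.3.3 with the moderated statistics of limma 3.58.1 (trend on the mean level), clone as a covariate, Benjamini-Hochberg adjustment over all genes tested, a minimum mean of 1 TPM in at least 1 group, an adjusted p under 0.05 and an absolute log2 fold change above 1. Differences from E14Tg2a and between the clones were tested as interactions, from means of line and day. *Nanog* was also compared by an exact permutation test. Figures were drawn with Python 3.11.15. *Nanog* was placed with GENCODE M21 and promoters with RefSeq, where 499 of 702 genes called higher and 423 of 594 called lower had an entry. Versions of the reference tables other than these builds are not given.

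The comparison and the gene lists were chosen with earlier results of these data known, so lists are described by counts and medians, without a set test, and they share genes. Named genes are *Nanog*, the 12 largest called changes per direction without overlap between days, and for each list up to 4 called members per direction and members that contrast with them. Genes compared with E14Tg2a were chosen after their values were seen. On simulated data, the comparison of days called 97 of 100 genes changed by 1.5 and 100 of 100 changed by 3 on the log2 scale, the comparison with E14Tg2a 83 and 99, and that between clones 72 and 95. The unchanged genes called were 1 in the first, 4 in the second and 13 in the third. The changed genes were drawn from those with a mean log2(TPM + 1) above 3, and noise was normal and independent between genes. Recovery of genes near the floor and shifts shared by a whole library were therefore not covered.

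According to the supplement of the paper the lines were differentiated in parallel in independent assays, but neither it nor the labels tie a replicate number to an assay. Pairing by number was therefore not established, and a fit with the replicate number as a block was an alternative only. After removal of group means, same-numbered libraries of different groups correlated with a median of 0.0826 in 13 pairs, of which 5 exceeded 0.1, and others with -0.0290 in 24 pairs. The median was 0.144 (-0.00968 to 0.333) in the 5 same-numbered pairs of the same day. In the 4 pairs of the same number and clone it was 0.104 (0.0453 to 0.128). Replicate 1 has no day 6 library and adds nothing to the change in that fit. No 2 libraries held identical values, and the highest correlation between libraries was 0.986. The pseudocount (0.1), the minimum (5 TPM or none) and the trend and clone terms were varied too, as were median-ratio rescaling, other sets of libraries and each library left out. Leaving out both libraries that stood apart was added after seeing the data.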

Additional observations from a re-analysis of the deposited data

Results flagged for a closer look

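Within each day, 37 of 289 gene and day combinations over the 145 genes considered had a highest or lowest library whose gap to the others was large against the whole range of the day (Dixon's 95% value). Chance gives about 1 in 20. Most of them fell in few libraries. What sets these libraries apart was not tested.

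ΔK9.1 replicate 3 of day 6 was the lowest library for 13 genes. They were the streak factors *T* (34.1 TPM), *Mixl1* (5.24 TPM), *Evx1* (4.05 TPM), *Sp5* (7.38 TPM), *Eomes* (17.6 TPM) and *Gsc* (2.47 TPM), the signalling genes *Wnt3* (4.42 TPM), *Msx1* (5.76 TPM) and *Cyp26a1* (13.6 TPM), and *Actc1* (1.59 TPM), *Zyx* (36.0 TPM), *Peg3* (16.9 TPM) and *Myc* (12.9 TPM). It was the highest for *Sox2* (204 TPM) and *Ldhb* (542 TPM). The remaining day 6 value was *Col3a1* in ΔK9.2 replicate 2, the highest at 2.21 TPM.

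On day 4, ΔK9.2 replicate 1 was the highest library for the endoderm regulators *Gata4* (6.30 TPM), *Gata6* (5.50 TPM), *Sox17* (7.56 TPM) and *Foxa2* (3.10 TPM), and for *Pdgfra* (3.54 TPM) and *Utf1* (456 TPM). ΔK9.1 replicate 2 was the highest for *Hand1* (1.75 TPM), *Mesp1* (0.855 TPM), *Evx1* (0.606 TPM), *Rspo3* (0.520 TPM), *Kdr* (0.455 TPM), *Hoxb1* (0.336 TPM), *Hoxb2* (0.184 TPM), *Etv4* (21.9 TPM) and *Gm45889* (0.974 TPM), all but *Etv4* at levels under 2 TPM. ΔK9.2 replicate 3 was the lowest for the naive genes *Esrrb* (61.0 TPM), *Zfp42* (85.6 TPM) and *Spp1* (90.7 TPM) and for *Sohlh2* (9.60 TPM), and the highest for *Thbs1* (2.90 TPM) and *Col1a1* (0.356 TPM).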

How the results depend on the processing

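The number of genes changed between day 4 and day 6 moved by over 1.5 times in 2 alternatives. With a pseudocount of 0.1 in place of 1 it was 2232 (1157 higher, 1075 lower), since low genes then show larger fold changes. With ΔK9.1 alone it was 557 (330 higher, 227 lower) and with ΔK9.2 alone, a fit of the same size, 1518 (786 higher, 732 lower), and the cause was not tested. Many named genes kept their direction but lost the call in ΔK9.1 alone, with a limma adjusted p above 0.05. Among them were *Cdx2*, *Hand1*, *Gsc*, *Tbx6*, *Kdr*, *Msx1*, *Axin2* and *Pdgfra*. In the other alternatives it stayed within 1.5 times 1296, and with each library left out it ran from 1091 to 1640 (570 to 868 higher, 466 to 772 lower). Across 19 fits of both clones, 358 genes higher and 305 lower on day 6 were called every time. The replicate number as a block gave 1081 genes (644 higher, 437 lower) and changed no call of a named gene other than those given with it above and that of *Cfc1* between days (gained).

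*Nanog* stayed lower in every fit. Its change was below the fold threshold throughout, and its limma adjusted p, 0.0267 as reported, was above 0.05 in several. The log2 fold change was -0.27 with all 33 libraries in the fit (limma adjusted p = 0.301), without the trend (0.0513) and in ΔK9.1 alone (0.223), -0.26 in ΔK9.2 alone (0.109), and -0.19 without both libraries that stood apart (0.112). With each library left out it ran from -0.34 to -0.19 (adjusted p of 0.0148 to 0.0800), and with the replicate block it was -0.30 (0.00887). The causes were not tested.

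The number of genes whose change differed from E14Tg2a was 0, but 13 with no minimum, 14 with all 33 libraries, 14 without the trend, 4 with the replicate block and 1 with replicates 2 and 3 alone. With each library left out it ran from 0 to 161, with 24 without E14Tg2a replicate 3 of day 6 and 161 without ΔK9.1 replicate 2 of day 6. Between the clones it was 0, but 1 with all 33 libraries, and 0 to 8 with each library left out. Over 144 named genes and 22 alternatives, 3027 outcomes kept direction and side of the threshold, 102 lost the call, 30 gained it and none reversed. Depth limits the low genes by an amount that TPM do not show.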

Other observations

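Lists outside the groups described above had 2 or fewer genes called in either direction, and 4.82% of all genes tested were higher and 4.08% lower, so nothing is read from these counts. Of 35 genes of cholesterol and fatty acid synthesis, 2 were higher on day 6 and none lower (median log2 fold change 0.36). They were *Scd2*, a fatty acid desaturase gene, at 87.1 to 122.6 TPM on day 4 and 146.1 to 302.5 TPM on day 6 without overlap, and *Hsd17b7*, of cholesterol synthesis. Of 24 MHC class I and interferon genes, 2 were higher and none lower (median 0.24), led by the ubiquitin-like *Isg15*, at 0.351 to 1.15 TPM on day 4 and 2.58 to 6.77 TPM on day 6. Of 22 histone genes 1 was lower (*Hist3h2a*), and of 13 genes of the 2-cell-like state 1 was lower (5 without ΔK9.2 replicate 3 of day 4).

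The unnamed transcript *Gm45889* had one of the 12 largest increases without overlap between days. It was listed at 0 in most day 4 libraries, with a maximum of 0.974 TPM, and lay between 5.13 and 50.4 TPM on day 6 (log2 fold change 4.16, standard error 0.48, limma adjusted p = 0.000288).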
